A study of Homo sapiens with 18 samples.

Results

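The 48 genes described here encode the protein parts of the human centromere and kinetochore, together with the spindle checkpoint that reads them. They were chosen by name: each is a gene whose symbol in the deposited gene table equals 1 of 48 listed symbols, and all 48 were found among the 62754 genes listed and were among the 15167 genes tested. They were measured by RNA sequencing of EA.hy926 cells, a hybrid line made by fusing human umbilical vein endothelial cells with the A549 lung carcinoma line, so the cells divide without limit and are not primary endothelium. Cells received transfection reagent alone (Mock), a non-targeting siRNA (siNT) or siRNA against ELMO1 (siELMO1), a pool of several siRNAs, siRNA being used at 10 nM. They were held in low serum overnight and lysed 48 h after transfection (0 h), or lysed after a further 24 h with 1 μg/ml poly(I:C), a synthetic double-stranded RNA that mimics viral RNA (24 h). Each of the 6 conditions had 3 libraries, which the study's methods call biological replicates. How the cultures behind them were divided is not given in the sources used here, and p-values measure the spread between these libraries. No library was made at 24 h without poly(I:C), and poly(I:C) cannot be told apart from 24 more hours in culture.

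The centromere is marked by nucleosomes that hold the histone variant CENP-A, which its chaperone HJURP and the MIS18 proteins deposit. The constitutive centromere-associated network (CCAN) sits on this chromatin throughout the cell cycle. In mitosis the KNL1, MIS12 and NDC80 complexes assemble on it and grip microtubules, the spindle checkpoint kinases and MAD proteins delay anaphase until every kinetochore is attached, and the chromosomal passenger complex corrects wrong attachments. Many transcripts of these proteins are made only in dividing cells, around G2 and mitosis, under the DREAM and MuvB complexes that bind CHR elements, with CCAAT boxes and E2F sites in the same promoters. CENPB, which binds alpha-satellite DNA, and CENPJ, a centriole protein despite its name, stand outside these assemblies. The genes are described below as an inner set, the 14 CCAN genes, and an outer set of 28 genes of the outer kinetochore, checkpoint, passenger complex and shugoshins, the guardians of sister cohesion.

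RefSeq promoter windows, 250 bases before to 50 after a start on GRCh38.p14, were at hand for 39 of the 48 genes. They were searched on both strands for the CHR element, spelled TTTGAA, for the CCAAT box, and for E2F-type motifs in 3 spellings, which are TTGGCGC, then the form written TTCCCGC, and then the form written TTCGCGC. Of the 39 genes, 16 (41%) held TTTGAA in a window, against 18.2% of all genes in the RefSeq table and 14% of the genes tested here. CCAAT was held by 64.1%, against 39.7% and 43.4%, and an E2F-type motif by 33.3%, against 13.1% and 21%. TTTGAA was found in 11 of 24 outer-set genes with a window and in 3 of 11 CCAN genes. A gene with several starts has several windows, and these shares are descriptions of letters, not of binding. The 6 windows of 30 bases below show, in capitals, 1 match each on either strand (TTCAAA being TTTGAA read from the other) in genes that differ in how far they fell: BUB1B, CDCA8, MAD2L1 and SKA3 fell by over 3-fold in siELMO1 at 0 h, INCENP fell little against siNT, and CENPB, whose window holds an E2F-type match and no TTTGAA, did not pass the test against siNT. In CDCA8 the last base of TTTGAA also begins an inverted CCAAT box. These windows are examples, and genes with and without TTTGAA were found among both large and small falls against siNT. OIP5, SPC24, SGO1 and KIF2C also fell by over 3-fold and held no TTTGAA in their windows. CENPC and CENPF held it and fell little against siNT. Against Mock, CENPF and INCENP fell by over 2-fold. A link between the motif and the fall was not tested.
BUB1B promoter, chr15:40161034-40161063, plus strand: gggaccgttaaaTTTGAAacttggcggcta
CDCA8 promoter, chr1:37692481-37692510, plus strand: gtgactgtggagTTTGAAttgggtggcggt
MAD2L1 promoter, chr4:120066807-120066836, minus strand: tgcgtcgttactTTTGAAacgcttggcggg
SKA3 promoter, chr13:21176538-21176567, minus strand: ccggcgccgagaTTCAAActagtggcggga
INCENP promoter, chr11:62123989-62124018, plus strand: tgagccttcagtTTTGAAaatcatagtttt
CENPB promoter, chr20:3786848-3786877, minus strand: atgtcccggcgGCGGGAAgggggtgggcgc

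Library totals ran from 40374756 to 73850946 estimated counts, and levels are given in CPM, the count scaled to a common library size after TMM correction. ELMO1 itself, the siRNA target and an adaptor in the activation of RAC1 by DOCK proteins, was at 3.04, 2.98 and 3.03 CPM (Mock), 2.85, 2.66 and 3.32 CPM (siNT) and 0.299, 0.301 and 0.419 CPM (siELMO1) at 0 h. It was 8.65-fold lower in siELMO1 than in siNT (log2 fold change -3.11, SE 0.28, adjusted p = 2.74e-08 by edgeR's quasi-likelihood test), and at 24 h it was at 1.52, 2.98 and 2.45 CPM (Mock), 3.38, 2.98 and 3.58 CPM (siNT) and 0.288, 0.155 and 0.359 CPM (siELMO1). The library siELMO1 0 h replicate 1 stood apart from its group: the chi-square per degree of freedom between its counts and those of the other two was 70.9 and 79.1, against 10.2 to 29.2 for every other pair of libraries of 1 condition. The counts of called genes that rest on that group were therefore also taken without it, for the fold and set counts as an alternative chosen after seeing the data. Each of 9 endothelial markers reached 0.1 CPM in at least 1 library of every condition. Their sum at 0 h was 2023 to 2150 CPM in Mock, 2229 to 2313 CPM in siNT and 2822 to 2980 CPM in siELMO1. The sum of 7 epithelial markers was 765.5 to 792.4 CPM in Mock, 812.7 to 817.8 CPM in siNT and 976.7 to 1087 CPM in siELMO1, with CDH1 and SFTPC under 0.1 CPM. At 24 h the endothelial sum was 1483 to 1881 CPM in Mock, 1978 to 2205 CPM in siNT and 2613 to 3181 CPM in siELMO1, and the epithelial sum was 484.4 to 495 CPM, 533 to 545.5 CPM and 533.8 to 628.1 CPM, lower than at 0 h in each transfection. The part of these shifts in the results was not tested. In bulk RNA, fewer cells of a type and less RNA per cell cannot be told apart.

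The first comparison asks which of these transcripts differ with ELMO1 siRNA before poly(I:C). Nearly the whole kinetochore programme was lower in siELMO1. Against siNT, 45 of the 48 genes fell and 1 rose (edgeR, adjusted p under 0.05), where 31.3% of all genes tested fell and 31.3% rose. With a fold change over 2 as well, 36 fell, against 6.22% of all genes. Against Mock, 46 of 48 fell, where 22.4% of all genes fell, and 39 did so by over 2-fold, against 4.5%. None rose against Mock: edgeR, DESeq2 and limma-voom each called 0 higher, and 0 were higher at an unadjusted p under 0.05, where 27.9% of all genes rose. The median log2 fold change of the 48 genes was -1.55 against siNT and -1.87 against Mock, beside 0.00 and 0.04 over all genes tested. Without siELMO1 0 h replicate 1 the counts of lower genes were 45 against siNT and 45 against Mock, and those over 2-fold were 36 and 39.

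**Figure D1:**
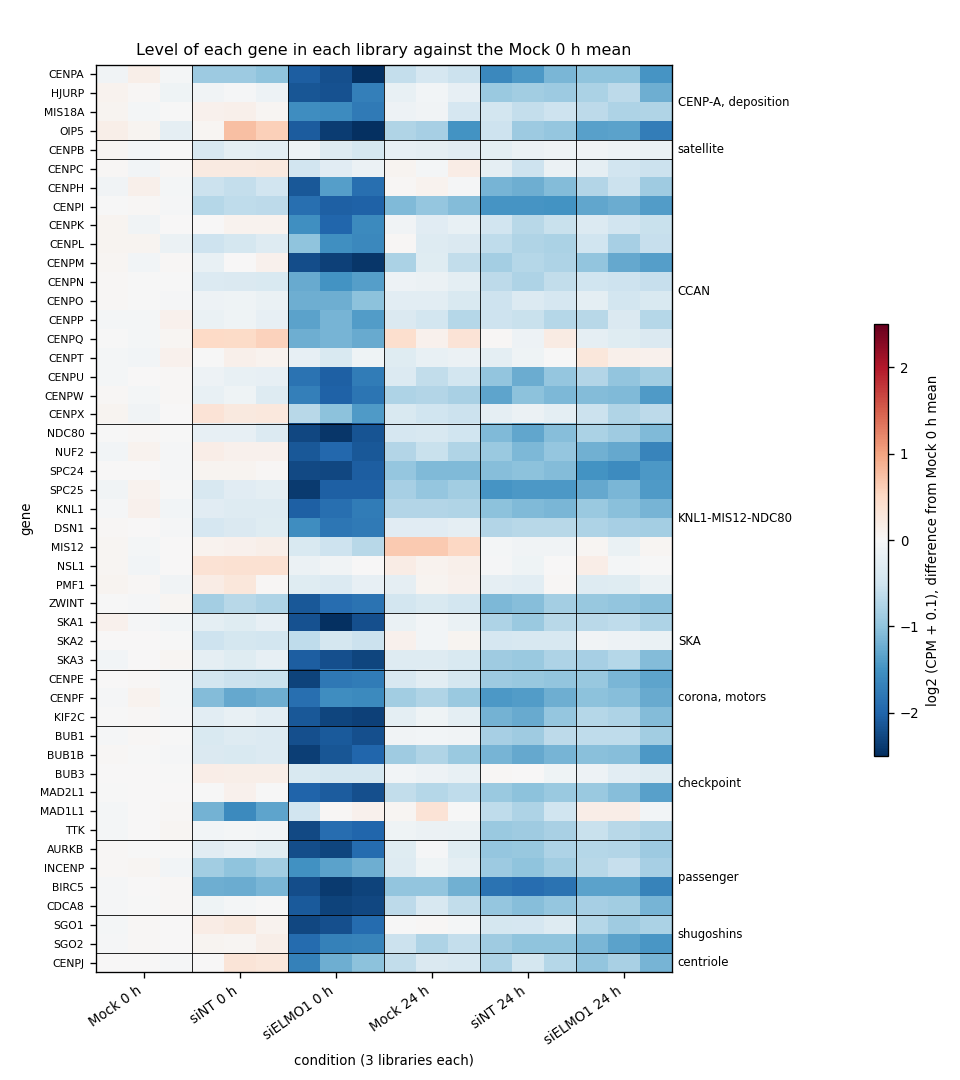
Level of each of the 48 genes (rows, grouped by role) in each of the 18 libraries (columns, 3 per condition), as the log2 difference from the Mock 0 h mean after 0.1 CPM was added; blue is lower and red higher. The 3 siELMO1 0 h columns are the darkest blue for most rows. The paler rows there include CENPB, CENPC, CENPT, MIS12, NSL1, PMF1, SKA2, BUB3 and MAD1L1.

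Both sets fell, the outer set with the larger median. The median log2 fold change against siNT was -1.28 over the 14 CCAN genes, of which 14 fell, and -1.81 over the 28 outer genes, of which 26 fell. Against Mock the medians were -1.37 and -2.07, with 14 of 14 and 26 of 28 lower. Without siELMO1 0 h replicate 1 the lower genes numbered 14 (inner) and 26 (outer) against siNT, and 13 and 26 against Mock. The genes of a set were also averaged in each library, as the log2 difference from the Mock 0 h mean. In siELMO1 this average lay between -1.44 and -1.34 for the inner set and between -1.74 and -1.62 for the outer set. These ranges of 3 libraries did not overlap, but the sets already differed in siNT. There the average lay between -0.13 and -0.10 (inner) and between -0.30 and -0.29 (outer). Summed over its genes, the outer set was at 2212 to 2282 CPM in Mock, 1753 to 1766 CPM in siNT and 753.0 to 808.9 CPM in siELMO1. The inner set was at 449 to 458.7 CPM in Mock, 395.2 to 401.4 CPM in siNT and 168.8 to 185.9 CPM in siELMO1. By these sums the 2 sets fell by similar factors against siNT. The difference between the 2 sets was not tested, since their genes were chosen and are not replicates.

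**Figure D2:**
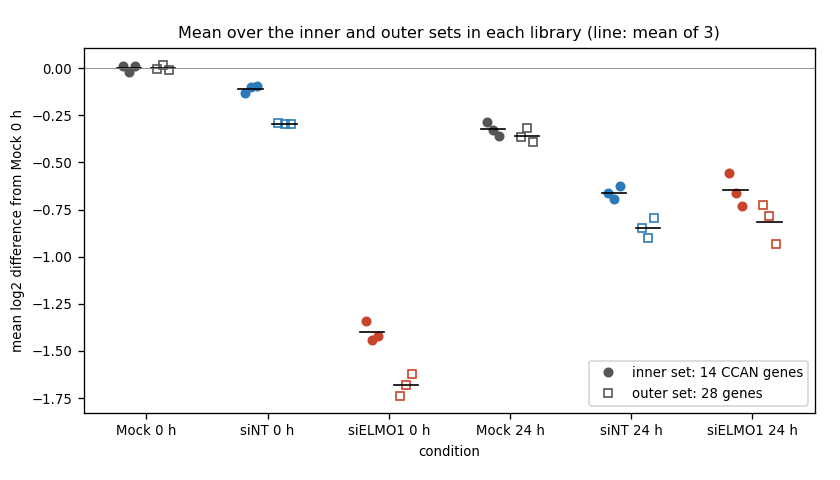
Mean log2 difference from the Mock 0 h mean over the 14 CCAN genes (filled circles) and the 28 outer genes (open squares) in each of 3 libraries per condition, with a line at the mean of 3. siELMO1 0 h is lowest for both sets, and siELMO1 24 h lies beside siNT 24 h.

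Among the genes that lay down CENP-A, all 4 fell against both controls. OIP5 (ENSG00000104147, chr15:41309273-41332591, minus strand; MIS18 beta, a subunit of the complex that licenses deposition) had the largest change of the 48: it was at 6.41, 6.02 and 4.92 CPM (Mock), 5.98, 9.75 and 8.71 CPM (siNT) and 1.28, 1.03 and 0.738 CPM (siELMO1) at 0 h. Its siELMO1 libraries all lay below the controls, 7.95-fold under siNT (log2 fold change -2.99, SE 0.25, adjusted p = 1.26e-08). CENPA, the histone variant itself, was at 20.8, 24.7 and 21.4 CPM (Mock), 11.9, 11.7 and 11.1 CPM (siNT) and 5.23, 4.79 and 2.99 CPM (siELMO1). CENPA was already lower in siNT than in Mock and lower again in siELMO1, with no overlap between the 3 groups (log2 fold change -1.41, SE 0.17, adjusted p = 1.18e-06 against siNT, and -2.36 against Mock). HJURP and MIS18A fell by 1.92 and 1.74 on the log2 scale against siNT.

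CENPB (chr20:3783851-3786740, minus strand, GRCh38) did not follow them. It was at 178.5, 165.4 and 171.6 CPM (Mock), 130.0, 144.6 and 143.7 CPM (siNT) and 157.1, 136.8 and 126.0 CPM (siELMO1) at 0 h. The siELMO1 libraries overlapped those of siNT (log2 fold change 0.01, SE 0.07, adjusted p = 0.943) and lay below the Mock libraries, a small difference (log2 fold change -0.29, SE 0.07, adjusted p = 0.00122).

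In the CCAN, all 14 genes fell, with log2 fold changes against siNT from -0.30 to -2.35. CENPM, a small CCAN subunit bound to CENPI, fell most: it was at 13.2, 12.2 and 13.1 CPM (Mock), 11.3, 12.9 and 13.9 CPM (siNT) and 2.69, 2.46 and 2.29 CPM (siELMO1). The siELMO1 libraries were 5.1-fold below siNT, with no overlap (log2 fold change -2.35, SE 0.14, adjusted p = 7.50e-11). CENPT, which carries NDC80 complexes on a path of its own, fell least, and was at 21.8, 21.5 and 24.1 CPM (Mock), 22.3, 24.4 and 23.9 CPM (siNT) and 19.4, 17.1 and 20.7 CPM (siELMO1). Its siELMO1 libraries lay below those of siNT and of Mock (log2 fold change -0.30, SE 0.08, adjusted p = 0.00398 against siNT and adjusted p = 0.0245 against Mock). A retained-intron transcript, CENPT-233, held a median of 57.3% (Mock), 57.1% (siNT) and 69% (siELMO1) of CENPT counts at 0 h. At 24 h its medians were 33.1%, 33.6% and 25%. The ranges at 0 h were 40.6 to 66.1% (Mock), 29.9 to 59.7% (siNT) and 39.8 to 69% (siELMO1). These ranges overlapped, as did those at 24 h. The CENPT level is therefore not that of its coding transcripts alone. CENPC, the main scaffold between CENP-A and the outer kinetochore, was also among the least changed (-0.53 against siNT), while CENPK, CENPQ, CENPU and CENPW each fell by more than 3-fold.

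The 10 genes of the KNL1, MIS12 and NDC80 complexes with ZWINT all fell against siNT. SPC24, a subunit of the NDC80 complex, was at 27.7, 27.5 and 26.9 CPM (Mock), 28.7, 28.5 and 27.8 CPM (siNT) and 5.68, 5.57 and 6.48 CPM (siELMO1). It was 4.79-fold lower in siELMO1 than in siNT, the SE being small beside the change (log2 fold change -2.26, SE 0.07, adjusted p = 2.59e-14). The other NDC80 complex genes moved alike: NDC80, NUF2 and SPC25 had log2 fold changes of -2.04, -2.20 and -1.88 against siNT. The MIS12 complex genes changed less. NSL1, the smallest change, was at 30.5, 27.9 and 29.6 CPM (Mock), 37.9, 38.3 and 38.0 CPM (siNT) and 26.5, 27.6 and 29.6 CPM (siELMO1): siELMO1 lay below siNT (log2 fold change -0.45, SE 0.06, adjusted p = 6.23e-06) and did not pass the test against Mock (log2 fold change -0.07, SE 0.06, adjusted p = 0.365). MIS12 and PMF1 fell by 0.64 and 0.46 on the log2 scale, and DSN1 by 1.34. PMF1 shares exons on its own strand with the readthrough gene PMF1-BGLAP, so its counts could be split between them. Its main transcript, PMF1-202, held 50.4 to 86.6% of PMF1 counts in Mock, 20.8 to 79% in siNT and 47 to 77% in siELMO1 at 0 h. These ranges overlap, with medians of 74%, 26.8% and 55.7%. The shares are among PMF1 transcripts only and cannot show a split with PMF1-BGLAP.

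SKA1 and SKA3, which load the SKA complex onto microtubules, fell, and SKA2 did not pass the test against siNT. SKA1 was at 52.9, 47.9 and 46.6 CPM (Mock), 41.2, 39.6 and 42.4 CPM (siNT) and 10.8, 8.05 and 10.6 CPM (siELMO1), a 4.15-fold fall against siNT (log2 fold change -2.05, SE 0.09, adjusted p = 2.32e-12). SKA2 was at 69.1, 69.2 and 68.0 CPM (Mock), 47.8, 51.0 and 49.8 CPM (siNT) and 44.4, 50.8 and 47.2 CPM (siELMO1): the siELMO1 and siNT libraries overlapped (log2 fold change -0.06, SE 0.05, adjusted p = 0.328), and both lay below Mock. Among the corona and motor genes KIF2C, a microtubule depolymerase, was at 97.4, 100.9 and 96.3 CPM (Mock), 81.5, 86.3 and 82.1 CPM (siNT) and 22.4, 19.9 and 19.3 CPM (siELMO1) and fell 4.04-fold (log2 fold change -2.01, SE 0.09, adjusted p = 3.96e-12). CENPF, a large corona protein, was at 300.1, 323.7 and 294.3 CPM (Mock), 144.3, 125.8 and 130.6 CPM (siNT) and 82.6, 103.7 and 100.7 CPM (siELMO1). Its change against siNT was small (log2 fold change -0.48, SE 0.09, adjusted p = 1.09e-04), and siNT itself was 2.29-fold below Mock (log2 fold change -1.20, SE 0.09, adjusted p = 4.30e-09).

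Of the 6 spindle checkpoint genes, 5 fell and 1 rose against siNT. MAD2L1, the MAD2 protein that inhibits CDC20, was at 75.0, 75.3 and 75.3 CPM (Mock), 74.8, 80.6 and 74.3 CPM (siNT) and 18.8, 17.8 and 16.4 CPM (siELMO1). The siELMO1 libraries were 4.32-fold lower than siNT (log2 fold change -2.11, SE 0.08, adjusted p = 6.24e-13). BUB1, BUB1B and TTK fell by 1.83, 1.80 and 2.00 on the log2 scale. BUB3, which also acts outside mitosis, changed least, at 241.7, 240.2 and 238.5 CPM (Mock), 269.6, 266.9 and 266.7 CPM (siNT) and 184.0, 177.0 and 177.1 CPM (siELMO1), a fall of 1.49-fold (log2 fold change -0.58, SE 0.05, adjusted p = 1.29e-08). MAD1L1 (chr7:1815793-2233243, minus strand), the anchor of MAD2 at the kinetochore, was at 22.7, 23.6 and 24.0 CPM (Mock), 10.2, 7.72 and 9.30 CPM (siNT) and 16.8, 23.8 and 25.2 CPM (siELMO1). It was higher in siELMO1 than in siNT (log2 fold change 1.26, SE 0.14, adjusted p = 3.82e-07) and did not pass the test against Mock (log2 fold change -0.10, SE 0.13, adjusted p = 0.558). The siNT libraries stood apart for MAD1L1, whose exons overlap another gene on the same strand: they were below Mock without overlap (log2 fold change -1.37, SE 0.14, adjusted p = 2.66e-07).

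The chromosomal passenger complex and shugoshins fell too. CDCA8 (borealin) was at 69.0, 70.2 and 71.5 CPM (Mock), 65.0, 67.8 and 69.8 CPM (siNT) and 16.2, 14.1 and 14.3 CPM (siELMO1), 4.52-fold lower in siELMO1 than in siNT (log2 fold change -2.18, SE 0.09, adjusted p = 6.57e-13). INCENP, the scaffold of the complex, was at 98.1, 99.7 and 91.3 CPM (Mock), 52.6, 47.8 and 52.4 CPM (siNT) and 33.6, 38.2 and 41.2 CPM (siELMO1); it was lower in siNT than in Mock, lower again in siELMO1, and its change against siNT was the smallest of the 4 (log2 fold change -0.44, SE 0.08, adjusted p = 1.07e-04). AURKB and BIRC5 fell by 1.87 and 1.11 on the log2 scale. SGO1, which protects centromeric cohesin, was at 37.4, 39.6 and 39.1 CPM (Mock), 43.8, 45.9 and 40.9 CPM (siNT) and 7.91, 8.38 and 10.1 CPM (siELMO1) (log2 fold change -2.31, SE 0.08, adjusted p = 1.21e-13), and SGO2 was at 56.6, 59.3 and 58.4 CPM (Mock), 60.9, 60.4 and 64.1 CPM (siNT) and 15.2, 18.0 and 18.1 CPM (siELMO1) (log2 fold change -1.86, SE 0.08, adjusted p = 2.57e-12). Neither overlapped its controls. CENPJ was at 16.7, 16.7 and 16.2 CPM (Mock), 16.7, 20.6 and 20.2 CPM (siNT) and 5.03, 7.00 and 8.02 CPM (siELMO1), lower in siELMO1 than in both controls (log2 fold change -1.53, SE 0.15, adjusted p = 5.27e-08 against siNT).

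**Figure D3:**
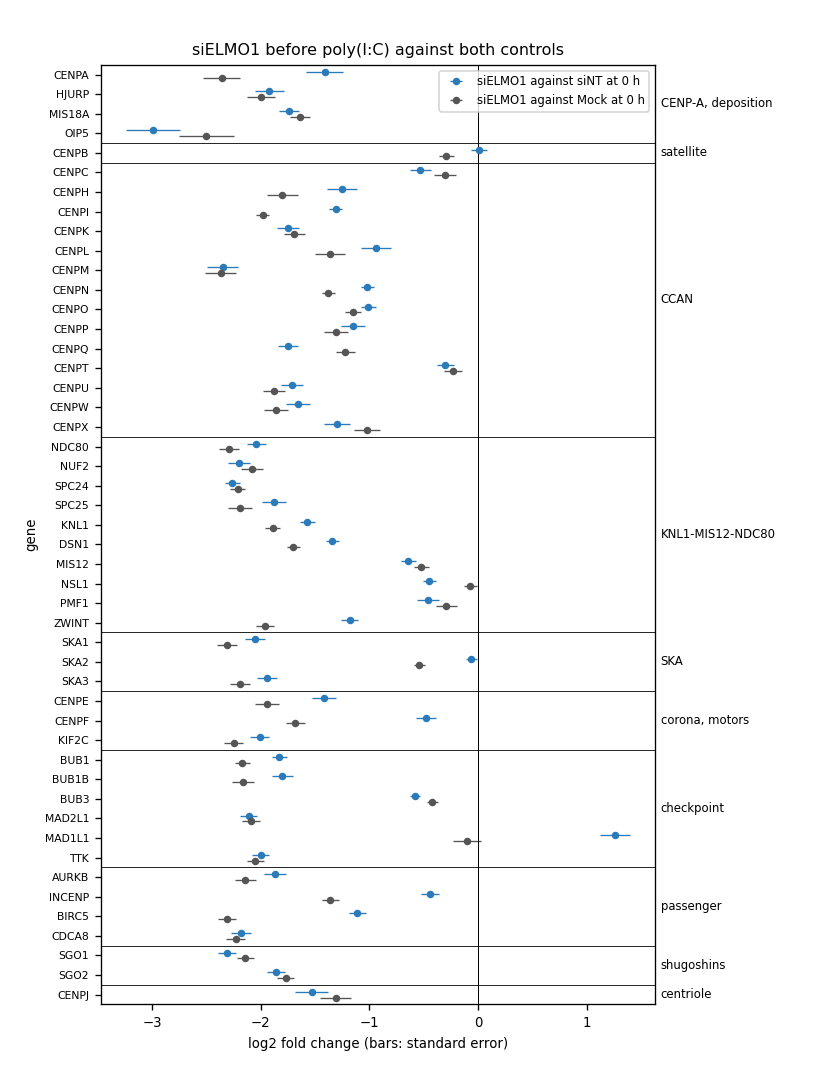
Log2 fold change (horizontal axis, bars are the standard error) of siELMO1 at 0 h against siNT (blue) and against Mock (grey) for the 48 genes, grouped by role. Most points lie between -1 and -2.5 for both controls; MAD1L1 lies at 1.26 against siNT and -0.10 against Mock.

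The siNT control was not the same as Mock. At 0 h, 23 of the 48 genes were lower in siNT than in Mock and 4 were higher, where 24% and 27.6% of all genes were, so the share of higher genes was below that of all genes. The median log2 fold change was -0.19. MAD1L1, CENPF and BIRC5 (survivin, a passenger complex subunit) fell by over 2-fold, as 4.32% of all genes did, BIRC5 by 1.20 on the log2 scale. BUB3, CENPQ, CENPX and NSL1 were the 4 that were higher. BIRC5, CENPQ and CENPX were named after their values were seen.

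**Figure D4:**
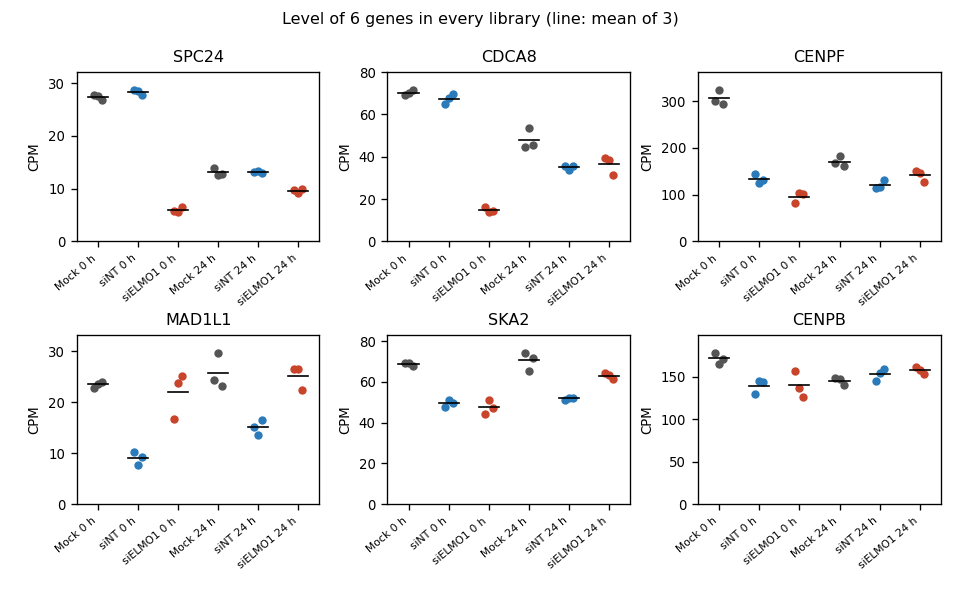
Level in CPM (vertical axis, from 0) of SPC24, CDCA8, CENPF, MAD1L1, SKA2 and CENPB in each library, with a line at the mean of 3. SPC24 and CDCA8 are lowest in siELMO1 0 h, MAD1L1 is lowest in siNT, and CENPB stays between 126.0 and 178.5 CPM.

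After 24 h with poly(I:C), the wide gap to siNT was no longer seen. The study reports extensive cell death in siNT cells by that time, and less in Mock and siELMO1 cells. The part of this cell loss in the 24 h values and responses was not tested. Against siNT 9 of 48 genes were lower and 12 higher, where 26.5% and 26% of all genes were, and the median log2 fold change was 0.05. The changes lay between -0.70 (OIP5) and 0.74 (MAD1L1). The count of higher genes fell to 6 without siNT replicate 2, without siELMO1 replicate 1 or without siELMO1 replicate 2 of the 24 h libraries. Against Mock, 39 were lower, where 22% of all genes were, with a median of -0.47, and 1, CENPT, was higher (log2 fold change 0.38, SE 0.08, adjusted p = 9.33e-04), where 21.6% were. siNT was likewise lower than Mock at 24 h: 37 of 48 genes, where 24.9% were, with a median of -0.44. None was called higher by edgeR, DESeq2 or limma-voom, where 25.2% of all genes were, and 2 were higher at an unadjusted p under 0.05. Mock and siNT libraries of the same number deviated together at 24 h, and with the replicate block 2 genes, BUB3 and CENPX, were called higher; these were named after their values were seen.

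By role, values at 24 h ran as follows for the genes with the largest change at 0 h. OIP5 was at 3.37, 3.19 and 1.97 CPM (Mock), 3.97, 3.03 and 2.88 CPM (siNT) and 2.18, 2.20 and 1.68 CPM (siELMO1), with siELMO1 below siNT (log2 fold change -0.70, SE 0.24, adjusted p = 0.0198). CENPM was at 7.38, 10.4 and 8.29 CPM (Mock), 7.02, 7.78 and 7.43 CPM (siNT) and 6.42, 5.20 and 4.87 CPM (siELMO1), again with siELMO1 lowest (log2 fold change -0.43, SE 0.13, adjusted p = 0.00953). SPC24, the NDC80 complex subunit, was at 13.9, 12.6 and 12.7 CPM (Mock), 13.1, 13.3 and 12.9 CPM (siNT) and 9.70, 9.14 and 10.0 CPM (siELMO1). Its siELMO1 libraries lay below both controls (log2 fold change -0.45, SE 0.06, adjusted p = 1.70e-05 against siNT). KIF2C was at 83.3, 91.3 and 82.4 CPM (Mock), 43.1, 40.8 and 50.4 CPM (siNT) and 59.8, 57.3 and 46.1 CPM (siELMO1); siELMO1 overlapped siNT and was higher by the test (log2 fold change 0.28, SE 0.09, adjusted p = 0.0135). SKA1 was at 43.9, 47.0 and 43.6 CPM (Mock), 28.7, 25.9 and 30.3 CPM (siNT) and 30.8, 31.4 and 28.7 CPM (siELMO1), and MAD2L1 at 48.8, 46.1 and 48.3 CPM (Mock), 39.5, 37.0 and 39.6 CPM (siNT) and 39.4, 35.9 and 29.2 CPM (siELMO1), with siELMO1 libraries that overlapped siNT and lay below Mock. CDCA8 was at 44.8, 53.5 and 45.7 CPM (Mock), 35.8, 33.7 and 35.9 CPM (siNT) and 39.7, 38.4 and 31.2 CPM (siELMO1), where siELMO1 and siNT overlapped. SGO1 was at 38.6, 39.3 and 37.6 CPM (Mock), 28.6, 28.9 and 31.0 CPM (siNT) and 23.6, 21.0 and 22.3 CPM (siELMO1), with siELMO1 lowest (log2 fold change -0.41, SE 0.07, adjusted p = 1.83e-04). CENPA was at 14.8, 16.5 and 15.4 CPM (Mock), 7.20, 8.16 and 10.1 CPM (siNT) and 10.9, 11.0 and 7.92 CPM (siELMO1), and siELMO1 overlapped siNT.

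The other named genes included some with siELMO1 above siNT at 24 h and some with it below. CENPB was at 149.1, 147.7 and 140.4 CPM (Mock), 145.7, 154.7 and 159.4 CPM (siNT) and 161.3, 158.2 and 153.3 CPM (siELMO1), with all 3 groups close. CENPT was at 18.2, 19.8 and 20.3 CPM (Mock), 18.9, 20.6 and 22.1 CPM (siNT) and 27.4, 24.4 and 24.1 CPM (siELMO1), with siELMO1 highest. NSL1 was at 33.4, 31.1 and 31.9 CPM (Mock), 28.5, 27.1 and 29.6 CPM (siNT) and 33.0, 28.4 and 29.2 CPM (siELMO1), with Mock above siNT without overlap and siELMO1 overlapping both. SKA2 was at 74.2, 65.5 and 71.8 CPM (Mock), 51.3, 52.1 and 52.1 CPM (siNT) and 64.4, 63.1 and 61.2 CPM (siELMO1); siELMO1 lay above siNT (log2 fold change 0.28, SE 0.05, adjusted p = 3.37e-04) and below Mock. CENPF was at 168.0, 182.6 and 161.4 CPM (Mock), 113.6, 116.8 and 130.8 CPM (siNT) and 150.9, 147.2 and 127.1 CPM (siELMO1), with siELMO1 above siNT by the test (log2 fold change 0.24, SE 0.09, adjusted p = 0.0304) though their libraries overlapped. BUB3 was at 229.6, 218.8 and 212.4 CPM (Mock), 245.9, 243.3 and 224.3 CPM (siNT) and 218.9, 201.0 and 192.8 CPM (siELMO1), with siELMO1 below siNT (log2 fold change -0.22, SE 0.05, adjusted p = 0.00116) and overlapping Mock. INCENP was at 77.4, 89.2 and 81.8 CPM (Mock), 51.3, 47.9 and 52.6 CPM (siNT) and 59.6, 64.3 and 54.2 CPM (siELMO1), where siELMO1 lay above siNT and below Mock. SGO2 was at 39.9, 34.2 and 38.2 CPM (Mock), 31.3, 29.0 and 28.8 CPM (siNT) and 26.2, 22.9 and 21.1 CPM (siELMO1), with siELMO1 lowest (log2 fold change -0.34, SE 0.08, adjusted p = 0.00177). CENPJ was at 10.8, 12.8 and 12.6 CPM (Mock), 9.58, 12.2 and 10.1 CPM (siNT) and 8.35, 9.39 and 7.33 CPM (siELMO1); siELMO1 lay below siNT, a difference that did not pass the test. MAD1L1 was at 24.3, 29.7 and 23.2 CPM (Mock), 15.0, 13.6 and 16.5 CPM (siNT) and 26.4, 26.4 and 22.4 CPM (siELMO1), with siNT lowest and siELMO1 above it (log2 fold change 0.74, SE 0.14, adjusted p = 2.15e-04).

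The change from 0 h to 24 h went opposite ways. In Mock 31 of the 48 genes fell and 2 (CENPQ and MIS12) rose, where 29.6% and 30.7% of all genes did, with a median log2 fold change of -0.28. In siNT 41 fell and 1 (MAD1L1) rose, where 25.2% and 28.6% did, with a median of -0.58. In siELMO1 43 of 48 rose, where 28% of all genes did, and 15 rose by over 2-fold, against 7.71%, with a median of 0.86. None fell in siELMO1: edgeR, DESeq2 and limma-voom each called 0 lower, with 0 at an unadjusted p under 0.05, where 26.9% of all genes fell. The count of genes that rose in siELMO1 was 43 with and without siELMO1 0 h replicate 1, and 16 rose by over 2-fold without it. CENPQ and MIS12 were named after their values were seen.

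**Figure D5:**
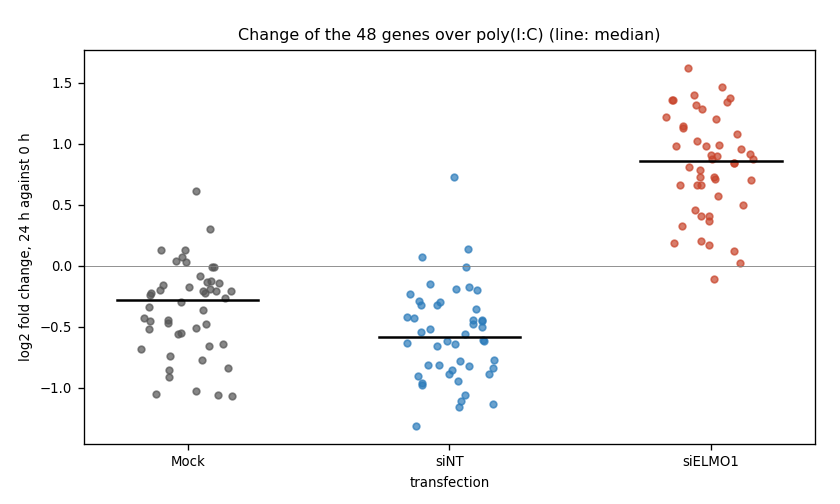
Log2 fold change of each of the 48 genes from 0 h to 24 h with poly(I:C) (vertical axis) in Mock, siNT and siELMO1, with a line at the median. The median is -0.28 in Mock, -0.58 in siNT and 0.86 in siELMO1.

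The rise in siELMO1 was led by SKA1 (log2 fold change 1.62, SE 0.09, adjusted p = 7.20e-11), followed among the named genes by KIF2C (1.40), SGO1 (1.34), CDCA8 (1.29) and CENPA (1.20). By set, 13 of 14 CCAN genes and 25 of 28 outer genes rose, where 28% of all genes did, with medians of 0.76 and 0.88, and without siELMO1 0 h replicate 1 the counts were 13 and 25. The rise did not bring the sums back to the Mock 0 h level. That level was 2212 to 2282 CPM (outer set) and 449 to 458.7 CPM (inner set). At 24 h the outer set was at 1175 to 1367 CPM in siELMO1. In siNT it was at 1224 to 1288 CPM and in Mock at 1660 to 1766 CPM. The inner set at 24 h was at 279.7 to 309.2 CPM in siELMO1, beside 272.8 to 288.1 CPM (siNT) and 347.1 to 367.5 CPM (Mock).

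The difference between the responses was tested as an interaction term. The response was higher in siELMO1 than in siNT for 45 of 48 genes, where 16.7% of all genes were, with a median difference of 1.54 on the log2 scale, and in 36 it was over 2-fold higher, against 3.83%. It was lower for MAD1L1 (log2 fold change -0.53, SE 0.19, adjusted p = 0.0438), where 17.8% of all genes were lower, a call that ended under limma-voom (adjusted p = 0.104); over all its alternatives the adjusted p ran from 0.00247 to 0.124. Without siELMO1 0 h replicate 1 the count of higher genes was 44, of which 37 were over 2-fold higher. Against the Mock response 43 genes were higher, with and without that library, where 13.8% were, with a median of 1.37. None was lower by edgeR, DESeq2 or limma-voom, with 0 at an unadjusted p under 0.05, where 14.6% were. Both comparisons share the siELMO1 libraries, and the siELMO1 0 h libraries enter the 0 h comparison and the response alike, so these counts are not independent of one another. Among the named genes the largest differences from siNT were in KIF2C (log2 fold change 2.30, SE 0.13, adjusted p = 4.67e-10), OIP5 (log2 fold change 2.29, SE 0.34, adjusted p = 5.18e-05) and CDCA8 (log2 fold change 2.23, SE 0.12, adjusted p = 2.77e-10).

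Neighbouring genes of the pathway, from separate lists, were compared between siELMO1 and siNT at 0 h, where 31.3% of all genes fell and 31.3% rose. Of 16 other centromere and kinetochore genes 13 fell and 2 rose, with a median of -0.78 (12 and 2 without siELMO1 0 h replicate 1). TRIP13, the ATPase that disassembles the checkpoint complex, was at 66.6, 64.3 and 62.4 CPM (Mock), 66.7, 62.7 and 60.4 CPM (siNT) and 15.3, 14.4 and 16.6 CPM (siELMO1) (log2 fold change -2.03, SE 0.09, adjusted p = 3.71e-12), and ERCC6L, a mitotic DNA translocase, fell by 2.00 on the log2 scale. Of 16 genes of the anaphase-promoting complex and its activators 11 fell and 1 rose, with a median of -0.21 (11 and 1 without that library). CDC20, the activator that the checkpoint holds back, was at 156.4, 168.6 and 162.2 CPM (Mock), 164.9, 162.5 and 166.4 CPM (siNT) and 36.6, 31.3 and 32.0 CPM (siELMO1) (log2 fold change -2.30, SE 0.10, adjusted p = 1.28e-12), while ANAPC11, the next largest change, fell by 1.16. Of 12 genes of cohesin, its regulators and its cleavage 9 fell and 1 rose, with a median of -0.20, beside 7 and 2 without that library. The largest falls were in ESPL1 (separase, -2.21) and PTTG1 (securin, -1.91), which govern cohesin cleavage.

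Per kilobase of the most used transcript, the Mock 0 h levels of the 48 genes ran from 1.90 CPM per kilobase (CENPP) to 59.5 CPM per kilobase (CENPB), with BIRC5 at 56.3 and AURKB at 51.6. These 4 names were picked after their values were seen. Exons of 5 of the 48 genes overlap another gene on the same strand (CENPA, CENPN, PMF1, BUB1B and MAD1L1) and 15 overlap a gene on the other strand; the sources used here do not say whether counting used strand, so the levels of these genes are uncertain.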

How the data were processed

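EA.hy926 RNA was prepared with a stranded mRNA kit and sequenced as paired ends. Per the submitters' processing notes and the study's methods, the authors aligned reads with STAR to GRCh38 and deposited estimated counts per gene and transcript from StringTie with the Gencode v44 annotation; versions and strand setting are not given in the sources used here. The deposited expected counts are whole numbers. The fit took the 15167 genes whose counts summed to 100 or more and whose highest CPM reached 1, in one model of all 18 libraries with 6 group means and TMM factors (0.958 to 1.06), by edgeR 4.0.16 quasi-likelihood test in R 4.3.3, with Benjamini-Hochberg adjustment over all 15167 genes and a threshold of 0.05. The biological coefficient of variation was 12.2%. Alternatives used DESeq2 1.42.0, limma 3.58.1, other scalings and filters, a replicate block, the groups compared alone, and each library left out. No 2 libraries held identical values. Depth per library was 40374756 to 73850946 counts, and a count of 3 marks the limit of detection, under 0.1 CPM. The scripts were tested on simulated data. edgeR narrowly missed the first pass mark for recovered changes, and the mark was replaced after that was seen by checks of sign, bias, recovery at low dispersion and edgeR's false calls. DESeq2 made more false calls there than edgeR or limma-voom, so its counts may be too high. Values per library were named for ELMO1 and, in each role group, for the gene with the largest and that with the smallest absolute log2 fold change of siELMO1 against siNT at 0 h, for any gene not called there or called higher, and for the 2 largest in each other list. The genes and lists were chosen with earlier results of these data known. At 24 h, Mock and siNT libraries of the same number correlated in their deviations from the group means (r = 0.16, 0.244 and 0.37 over 9626 genes). siELMO1 at 24 h gave r = 0.0367, 0.197 and 0.416 with siNT, and 0.0281, 0.29 and 0.387 with Mock. siELMO1 at 0 h and at 24 h gave 0.167, 0.256 and 0.0309. The lowest r was -0.252, for Mock at 0 h with Mock at 24 h. Whether the numbers pair libraries is not given in the sources used here, and the main fit did not pair them. Of the 48 genes, 9 had no promoter window (CENPH, CENPJ, CENPL, CENPM, MIS18A, KNL1, BUB3, TTK and BIRC5).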

Additional observations from a re-analysis of the deposited data

Results flagged for a closer look

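The poly(I:C) response differed between transfections by the interaction test of edgeR. It was higher in siELMO1 than in siNT for 45 of the 48 genes and lower for 1, where 16.7% and 17.8% of all genes were. It was higher in siELMO1 than in Mock for 43, where 13.8% of all genes were. As differences in log2 response, siELMO1 minus siNT, the values of the genes named by rule were OIP5 2.29, CENPA 1.64, CENPM 1.92, CENPT 0.60, SPC24 1.81, NSL1 0.54, SKA1 2.15, SKA2 0.34 and KIF2C 2.30. The remaining values were CENPF 0.72, MAD2L1 1.96, BUB3 0.36, CDCA8 2.23, INCENP 0.67, SGO1 1.90, SGO2 1.51 and CENPJ 1.18. MAD1L1 was the only one of these with a lower response, at -0.53. All of these rest on the siELMO1 0 h and siNT 0 h libraries, which also set the 0 h comparison. No condition had more than 3 libraries, so no library was tested as an outlier.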

How the results depend on the processing

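The counts of lower genes at 0 h, of genes that rose in siELMO1 and of higher responses stayed within 1.5 times their values under DESeq2, limma-voom, both scalings, both filters, the replicate block, the groups compared alone and each library left out. Small counts moved. Genes higher in siELMO1 than siNT at 24 h numbered 12, 7 by library totals, and 6 to 14 with a library left out. Genes higher in siNT than Mock at 0 h numbered 4, 7 by limma-voom, 2 by library totals, 2 with no filter and 7 with the groups compared alone, and 2 to 4 with a library left out. At 24 h they numbered 0, 1 by library totals, 2 with the replicate block and 1 with the groups alone. With a library left out they numbered 0 to 1. The replicate block gave each replicate number an effect shared by all 6 conditions. Genes that rose in Mock numbered 2, 1 by library totals and 1 to 2 with a library left out. The lower response of MAD1L1 was lost (0 genes) by limma-voom, no filter, filterByExpr, the replicate block and the groups alone, and the count was 0 to 1 with a library left out; the cause was not tested. CENPB against siNT at 0 h was -0.01 by library totals, -0.01 with no filter, and -0.09 to 0.08 with a library left out, and MAD1L1 against Mock -0.22 to 0.06. By library totals the summed levels at 0 h were 480.6 CPM (inner) and 2375 CPM (outer) in Mock and 405.7 and 1789 CPM in siNT. Changes near 0 in the least changed genes cannot be resolved with 3 libraries a group.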

Other observations

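Among the neighbouring genes, some were lowest in siNT, as MAD1L1 was. ZW10, a subunit of the corona complex that recruits dynein and MAD1, was at 38.5, 40.3 and 40.4 CPM (Mock), 9.92, 9.95 and 10.5 CPM (siNT) and 34.1, 33.2 and 37.1 CPM (siELMO1) at 0 h, so that siNT lay below both other groups (log2 fold change -1.97, SE 0.07, adjusted p = 9.83e-13 against Mock, and 1.78 for siELMO1 against siNT). BOD1, a regulator of mitotic phosphatase activity, was at 57.4, 59.6 and 61.7 CPM (Mock), 33.7, 37.2 and 36.3 CPM (siNT) and 56.2, 54.3 and 54.5 CPM (siELMO1) (log2 fold change -0.74, SE 0.06, adjusted p = 6.57e-09), and SMC1A, a cohesin subunit, was at 189.9, 196.6 and 181.0 CPM (Mock), 111.6, 106.9 and 109.8 CPM (siNT) and 134.7, 182.3 and 176.2 CPM (siELMO1) (log2 fold change -0.79, SE 0.08, adjusted p = 4.44e-07). The siELMO1 libraries of ZW10 and BOD1 also lay below Mock, by a smaller margin. All 3 genes were picked after their values were seen, and their number was not tested.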
